A study of Mus musculus with 14 samples.

Results

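Embryoid bodies (EB), the aggregates that mouse embryonic stem cells (ESC) form when they differentiate, were divided by how much RNA of Pou5f1 they still carried. Pou5f1 is the gene of the stem cell transcription factor Oct4. The rule placed an EB sample on the retaining side where the deposited intensity of the Pou5f1 probe set was 1000 or more. It selected 3 of the 8 EB samples, in a series of 14 arrays. The retaining samples were the TKO lines Dutch at 7410.3, 14-14-4 at 6132.8 and 2-55-2 at 1542.2. The other 5 were TKO line 7-4-1 at 146.8, TKO line Ta1-12 at 17.1, and the wild-type (WT) lines B21 at 38.8, J1 at 32.8 and R1 at 55.2. The sample just inside the cut was therefore 2-55-2, and the one just outside it was 7-4-1. In the 6 ESC arrays the probe set read from 9879.8 to 12950.1. Because the samples were divided by a measured value, every difference between both sides given here is a description without a test. All retaining samples carry the TKO label and no WT sample does, so Pou5f1 retention and the TKO label cannot be told apart in the comparison of all 8 EB samples. The 5 TKO samples alone, 3 against 2, share the label, though not the same signal of the Rb family. Rbl1 differed in Ta1-12 and Dutch, and Rbl2 was lower in the 3 retaining lines than in 7-4-1 and Ta1-12.

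The series asks how cells without the Rb gene family leave the cell cycle and differentiate. Its EB arrays comprised 5 TKO lines and 3 WT lines, and its ESC arrays comprised the TKO lines 7-4-1, Dutch and Ta1-12 and the WT lines B21, J1 and R1. The labels do not spell out TKO, which by common usage is a triple knockout of Rb1, Rbl1 and Rbl2, the genes of the pocket proteins pRB, p107 and p130. Each line gave 1 array per stage, so the spread between arrays is a spread between lines. The strain, the kind of allele, whether a line is a clone, the days of EB culture and any treatment are not given in the sources used here. No agent was named for any group. Lines 2-55-2 and 14-14-4 have no ESC array here, so their own starting level was not measured.

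Oct4, Sox2 and Nanog bind one another's genes and keep stem cells pluripotent, and their RNA normally falls as EB differentiate into ectoderm, mesoderm, endoderm and extraembryonic tissue. Oct4 and Sox2 often bind side by side at a composite site in which a Sox sequence adjoins an octamer. Pocket proteins bind E2F transcription factors and, in cells that leave the cycle, hold down the genes of DNA replication and mitosis that carry E2F sites.

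Of Pou5f1 and the 15 genes with the largest higher differences on the retaining side, 12 had a promoter in the RefSeq table (GRCm38.p6, 250 bases before to 50 after the start site). The octamer core ATGCAAA was searched on both strands and was found in 2 of these 12 genes, Nanog and Zfp42, against 5.24% of all 27025 genes with a promoter. It was also found in 1 of 10 promoters among the 15 genes with the largest lower differences. The Sox-Oct composite, here CATTGT followed after 1 free base by the octamer core and so overlapping it, was found in the promoter windows of Nanog and of no other gene. Both promoters are shown because they held the octamer core. Nanog and Zfp42 were also among the 5 genes whose levels were most like those of Pou5f1. Capitals mark the match, which in each case lies on the reverse strand. The Nanog window is chr6:122707315-122707614 on the plus strand, where the match begins at -151 from the start site, and the Zfp42 window is chr8:43306960-43307259 on the minus strand, where it begins at -185.
Nanog: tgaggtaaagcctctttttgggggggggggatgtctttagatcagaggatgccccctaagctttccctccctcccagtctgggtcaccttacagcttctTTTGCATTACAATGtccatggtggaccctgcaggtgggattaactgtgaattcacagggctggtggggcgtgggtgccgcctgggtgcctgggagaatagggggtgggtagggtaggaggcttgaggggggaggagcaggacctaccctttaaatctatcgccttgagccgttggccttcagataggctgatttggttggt
Zfp42: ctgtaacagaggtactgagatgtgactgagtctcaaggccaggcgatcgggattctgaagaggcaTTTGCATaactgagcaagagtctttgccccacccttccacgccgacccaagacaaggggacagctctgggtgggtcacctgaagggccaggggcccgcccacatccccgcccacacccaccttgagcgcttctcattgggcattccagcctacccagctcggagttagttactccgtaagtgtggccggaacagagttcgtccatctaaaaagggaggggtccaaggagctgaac
A match describes the letters in the window and is not evidence of binding in these cells.

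Array medians of the 8 EB samples ran from 87.2 to 107.9 in intensity. The labels were set against the probe sets of the Rb family. Rbl1 read 15.9 in 14-14-4, 31.7 in 2-55-2 and 38.3 in 7-4-1, but 377.1 in Dutch and 1095.9 in Ta1-12, against 586.3, 1089.6 and 493.0 in WT EB. Dutch was thus between the other TKO lines and WT, and its ESC array read 250.3. The sample labelled TKO Ta1-12 was at the WT level, and its ESC array read 492.5 against 355.6 to 693.8 in WT ESC. Rb1 read 300.5 to 912.8 in TKO EB and 407.1 to 1018.4 in WT EB, and the sources do not say whether its probe set lies in the deleted part. Rbl2 followed the Pou5f1 split, and its values are given further below. The limma comparison and the counts among TKO lines are also given without the sample labelled Ta1-12. Several list counts along the split also change without it and are given only with it. Mesenchyme genes lower without overlap, for example, were 9 with Ta1-12 and 10 without it. The lines also differed in ways that cut across the Pou5f1 split. The Y-linked gene Eif2s3y lay under 20 in 14-14-4, 2-55-2 and 7-4-1 and between 597.5 and 2681.6 in the other 5 EB samples. Meg3, an imprinted RNA of the Dlk1 locus, read 53, 51.7 and 46.8 in these same lines, against 1241.4 in Dutch and 4797.7 to 13547 elsewhere. In a culture of many cell types, fewer cells of a type and less RNA per cell cannot be told apart.

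Across the 14365 genes tested, 140 genes (0.975%) were at least 2-fold higher on the retaining side without any overlap between the 3 and the 5 arrays. Another 392 genes (2.73%) were at least 2-fold lower by the same rule. After quantile normalization the counts were 221 and 197, and the median difference of all genes moved from -0.13 to 0.02 on the log2 scale, so the excess of lower genes was not kept under that scaling. Leaving out 2-55-2, the retaining line with the least Pou5f1, gave 460 higher and 1064 lower genes, and leaving out 7-4-1 gave 417 and 980. Within the TKO lines 216 genes (1.5%) were higher and 563 (3.92%) lower. Those counts were 570 and 1213 without 2-55-2, 748 and 1798 without 7-4-1, and 669 and 1267 without Ta1-12. Nothing is read from these shares, since the arrays were sorted by one of their own genes. Intensity under 32 was raised to 32 before log2 was taken, which understates the difference of any gene that lies under it on one side.

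The largest higher differences belonged to genes of the pluripotent state. Nanog, whose product sustains self-renewal, read 8416.6 in Dutch, 4332.8 in 14-14-4 and 822.9 in 2-55-2. It read 202.8 in 7-4-1, 20.3 in Ta1-12 and 33.6 to 56.8 in WT EB, a mean log2 difference of 5.73 between both sides (SD 1.73 among the 3 arrays and 1.08 among the 5). The retaining arrays lay above all others, and 7-4-1 stood highest among the rest. Zfp42, the stem cell marker Rex1, read 10697, 6445.4 and 1189.0 in Dutch, 14-14-4 and 2-55-2, against 46.0 to 241.3 in the other 5. Esrrb, an orphan nuclear receptor of the naive state, read 3481.8, 2716.4 and 254.1 against 14.7 to 56.9. Both genes kept the order of the 3 retaining lines seen for Pou5f1. Of the 17 tested core and naive pluripotency factors, 9 were higher without overlap and none was lower, where 3.68% of all genes were higher by that rule without a fold limit. Their median log2 difference was 2.01, against -0.13 for all genes, and 9 were also separated after quantile normalization, where the shares of all genes were 7.94% higher and 4.75% lower. The members without separation were Sox2, Klf2, Klf4, Klf5, Tfcp2l1, Nr5a2, Sall1 and Sall4. Sox2, which neural progenitors also express, read 10809, 8580.8 and 4195.9 on the retaining side and 2377.8 to 6558.4 on the other. Line 2-55-2 thus fell within the range of the EB under the Pou5f1 cut. Klf5 stood at 48.0%, 75.2% and 48.4% of the TKO ESC mean in Dutch, 14-14-4 and 2-55-2, against 11.4% in 7-4-1 and 156% in Ta1-12.

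The 3 retaining lines held different amounts of the pluripotency RNAs. Each gene was expressed as a percentage of its mean intensity in the 3 TKO ESC arrays, using the deposited values. Over the 17 factors the median was 70.8% in Dutch, 52.5% in 14-14-4 and 11% in 2-55-2, beside 5.11% in 7-4-1 and 9.35% in Ta1-12. The Ta1-12 median included Klf4 at 115% and Klf5 at 156%. For the 18 ESC-restricted genes the medians were 70.3%, 44.0% and 9.95% in the retaining lines, against 2.80% in 7-4-1 and 1.91% in Ta1-12. Differentiated tissue expresses most of these genes little, but Pecam1 also marks endothelium and stood at 35.6% in Ta1-12. Percentages that rest on intensity under 32 have no order among themselves.

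**Figure D1:**
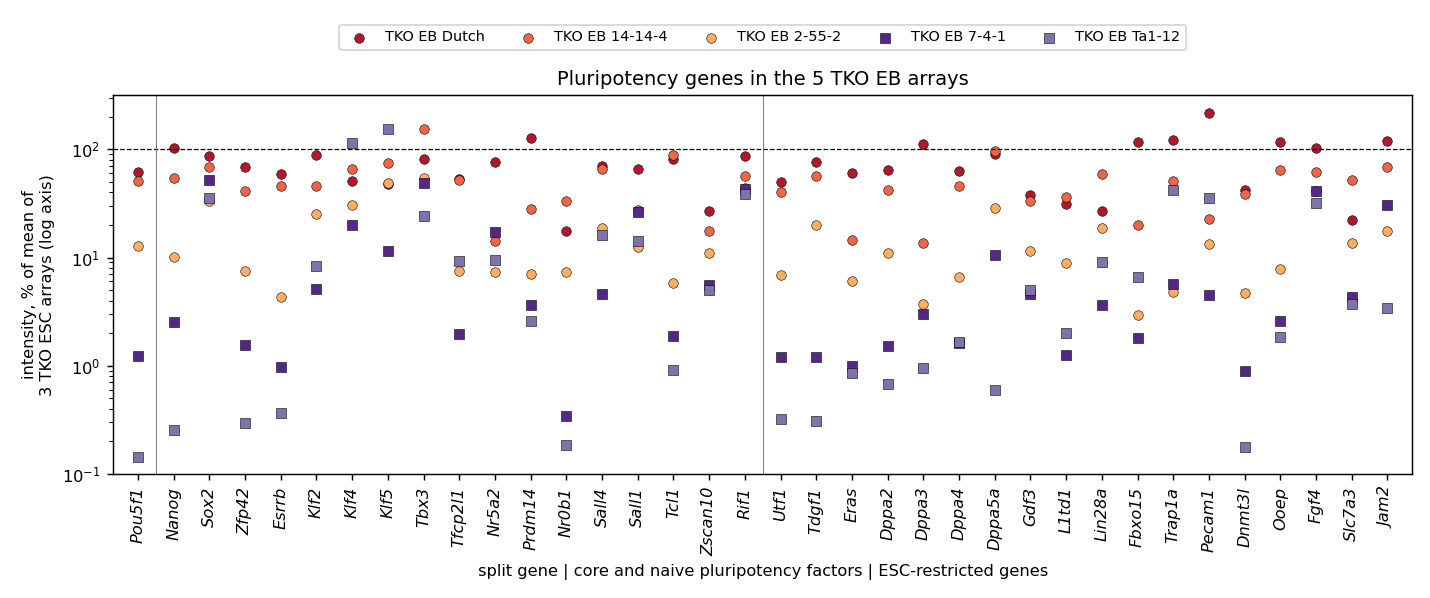
Intensity of Pou5f1, 17 core and naive pluripotency factors and 18 ESC-restricted genes in each TKO EB array, as a percentage of the mean of the 3 TKO ESC arrays on a log axis. Circles are the 3 retaining lines and squares the 2 other TKO lines, 1 array each; the dashed line is 100%, near which many Dutch values lie, while 2-55-2 lies mostly about an order lower.

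ESC-restricted genes were also separated between both sides. Of 18 tested, 13 were higher without overlap and none lower, where 3.68% of all genes were higher, and their median log2 difference was 3.72. Utf1, a chromatin protein of pluripotent cells, read 3399.9, 2752.9 and 476.9 in Dutch, 14-14-4 and 2-55-2 against 22.0 to 82.1 elsewhere. Dppa5a, an RNA-binding protein of early embryonic cells, read 19084, 20352 and 6086.1, against 2206.5 in 7-4-1 and 125.5 to 650.6 in the other 4. It therefore stood at 97.1% of the ESC mean in 14-14-4 and still at 29.0% in 2-55-2. Eras, a Ras-like growth gene of stem cells, read 2184.5, 531.3 and 218.6 against 19.4 to 36.0, which left 14-14-4 at 14.6% of the ESC mean and Dutch at 60.1%. Dppa3, a maternal factor also called Stella, differed most between both high lines among the 13 separated genes, at 112% in Dutch and 13.6% in 14-14-4. Fgf4, also among the 13, separated barely, at 41.2% in 2-55-2 and 41.0% in 7-4-1. The genes without separation were Lin28a, Fbxo15, Trap1a, Pecam1 and Jam2. Trap1a reached 126% of the TKO ESC mean in the WT EB line R1, and Lin28a reached 46.4% there. Line R1 thus carried RNA of some genes of this list while its Pou5f1 lay at 55.2.

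By Pearson correlation of log2 intensity with Pou5f1, the 5 most similar genes were Nanog at 0.995, Dppa2 at 0.995, Utf1 at 0.994, Zfp42 at 0.994 and Nodal at 0.992 over the 14 arrays. Over the 8 EB arrays alone the values were 0.991, 0.993, 0.992, 0.988 and 0.988. The arrays fall into ESC and EB, and within EB into both sides of the split, so these values describe likeness and carry no test. Dppa2, a nuclear protein of pluripotent cells, read 2709.1, 1786.2 and 460.4 in Dutch, 14-14-4 and 2-55-2 and 23.3 to 64.2 in the other 5 EB samples.

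The Nodal pathway, through which the early embryo patterns its axis and forms mesendoderm, was high on the retaining side at the level of ligand, co-receptor and inhibitors. Nodal, the ligand, read 1294.5, 1098.1 and 365.7 in Dutch, 14-14-4 and 2-55-2, against 23.6 to 54.0 in the rest. Its co-receptor Tdgf1, also called Cripto, read 9354.7, 6962.1 and 2434.1 against 37.7 to 296.3. Both showed complete separation with the smallest values of the retaining side in 2-55-2. The secreted inhibitor Lefty2, itself a Nodal target, was highest in 14-14-4 at 3476.4, with 1519.1 in Dutch and 431.4 in 2-55-2, and read 11.3 to 99.8 elsewhere. Lefty1 was also highest in 14-14-4, with 91.9% of the ESC mean there, 28% in 2-55-2 and 18.3% in Dutch, so the line with the most Pou5f1 was the lowest of the 3. The pathway's transcription factor Foxh1 stood at 66.7%, 48.1% and 23.8% in Dutch, 14-14-4 and 2-55-2 and at 6.33% to 8.39% elsewhere. The receptor Acvr2b, the transducer Smad2 and the processing enzymes Furin and Pcsk6 overlapped between both sides. Of 17 tested genes of the primitive ectoderm and Nodal list, 7 were higher without overlap and none lower, where 3.68% of all genes were higher. Their median log2 difference was 1.13, against -0.13 for all genes. Tdgf1 is also counted among the ESC-restricted genes. The primitive ectoderm marker Fgf5 was among the 7, at low intensity throughout, with 80.9, 112.7 and 185.2 in Dutch, 14-14-4 and 2-55-2 and 13.2 to 36.0 in the rest. It was the one of these genes that was highest in 2-55-2. Otx2, an anterior and epiblast regulator, read 3651.4, 1645.5 and 674.2, and overlapped with 765.3 in 7-4-1.

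Some genes of DNA methylation were separated as well. Dnmt3b, a de novo methyltransferase, read 2072.8, 2842.7 and 2003.8 in Dutch, 14-14-4 and 2-55-2, against 1077.0 in WT line R1 and 210.6 to 310.3 in the other 4. It was nearly equal in the 3 retaining lines, unlike Pou5f1. Dnmt3l, its catalytically inactive partner, read 1662.3, 1524.0 and 188.2 against 7.1 to 35.3. Tet1, which oxidises methylcytosine, read 2984.1, 2528.1 and 975.4, and its separation from 936.9 in 7-4-1 was small. Of the 10 tested genes of this list, 4 were higher without overlap and none lower, where 3.68% of all genes were higher. Dnmt3b is also counted in the primitive ectoderm and Nodal list, and Dnmt3l among the ESC-restricted genes. Dnmt3a, the other de novo methyltransferase, overlapped, at 42.5%, 70.3% and 57.1% of the ESC mean in Dutch, 14-14-4 and 2-55-2 and 57.4% in 7-4-1. The FGF-responsive factor Etv5 read 3811.4, 2144.5 and 680.8 against 233.3 to 623.0, and Alpl, the alkaline phosphatase of stem cells and bone, read 2046.8, 934.6 and 145.6 against 66.8 to 121.3.

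A wider view came from genes chosen on WT arrays only, so that no TKO array entered the choice. Genes at least 4-fold apart between WT ESC and WT EB without overlap numbered 447 for those higher in ESC (3.11%) and 1368 for those higher in EB (9.52%). The median ESC-high gene stood at 65.2% of the TKO ESC mean in Dutch, 28.4% in 14-14-4 and 15.5% in 2-55-2. It stood at 14.7% in 7-4-1 and 12.6% in Ta1-12, and in WT EB at 13.2% to 14.8% of WT ESC, where the genes were chosen. Line 2-55-2 thus held 12.9% of the ESC level of Pou5f1 and 10.2% of Nanog, where 7-4-1 held 1.23% and 2.52%, while its median over the 447 ESC-high genes lay close to that of 7-4-1. That closeness depended on the cut for stage genes. With genes at least 8-fold apart the log2 median was -3.48 in 2-55-2, above the -4.12 of 7-4-1 and the -4.13 of Ta1-12, and it was -0.67 in Dutch and -2.09 in 14-14-4. The EB-high genes had a median log2 rise over TKO ESC of 1.28 in Dutch, 2.05 in 14-14-4 and 2.63 in both 2-55-2 and 7-4-1, and of 3.35 in Ta1-12. The quartiles of neighbouring lines overlapped.

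**Figure D2:**
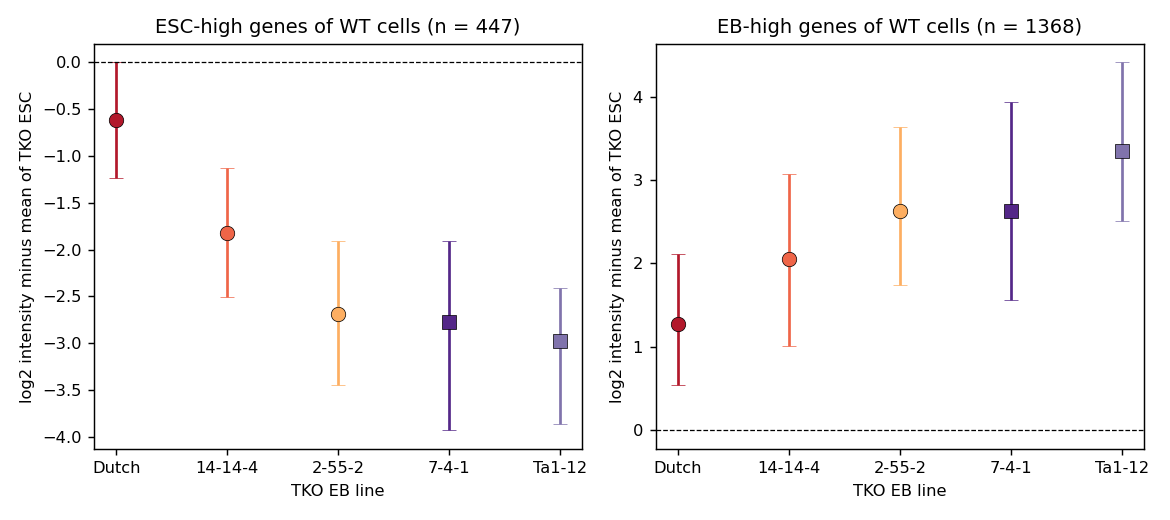
Median (symbol) and quartiles over genes (bars) of log2 intensity minus the mean of TKO ESC, for genes higher in WT ESC (left, 447 genes) and higher in WT EB (right, 1368 genes), 1 array per TKO EB line. Dutch lies nearest to ESC in both panels, and at this cut for stage genes 2-55-2 lies beside 7-4-1, which was under the Pou5f1 cut.

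Of the 216 genes higher on the retaining side among TKO lines, 170 (78.7%) were at least 2-fold higher in WT ESC than in WT EB without overlap, and 3 were higher in WT EB. Over all genes tested, 11.3% were higher in WT ESC by that rule and 21% in WT EB. Of the 563 lower genes, 456 (81.0%) were higher in WT EB and 1 in WT ESC. These 2 comparisons share no array. The shares are given with Ta1-12 only, without which the sets were 669 and 1267 genes. The 43 higher genes that passed the 2-fold rule without overlap in neither direction in WT cells included some named here after their values were seen. Missing that rule does not mean that no stage difference existed, since Tbx3 was higher in WT ESC by a log2 difference of 1.4. Maoa, which breaks down monoamines, read 1563.7 to 1637.8 in the retaining lines and 1307.4 in Ta1-12, but 14.7 in 7-4-1, whose ESC array was also low at 33.5. Mid1, an X-linked ubiquitin ligase, read 686.0, 324.4 and 1534.6 in Dutch, 14-14-4 and 2-55-2, against 233.2 in 7-4-1 and 26.6 to 79.5 in the other 4. Its ESC arrays ranged from 19.1 to 485.1 outside Dutch, where it read 4022.3. Both genes thus differed between lines already in the ESC arrays.

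Germline genes had a list mean of 9.72 on the log2 scale in Dutch, 7.29 in 14-14-4 and 6.13 in 2-55-2. Of 19 tested, 13 lay at or above the TKO ESC mean in Dutch EB, against 1 in 14-14-4 and 0 in 2-55-2. In Dutch EB, 7 of 18 ESC-restricted genes did so, 6 of 17 primitive ectoderm and Nodal genes and 2 of 17 pluripotency factors. The share of all genes at or above that mean was not computed, so no excess is read from these counts. Sohlh2, a germ cell transcription factor, read 5247.2 in Dutch and 266.5 in 14-14-4, while 2-55-2 at 47.2 lay among the 25.9 to 52.2 of the other samples. Dazl, an RNA-binding protein of germ cells, stood at 906% of the ESC mean in Dutch, 18.6% in 14-14-4 and 3.20% in 2-55-2. Stra8, which germ cells induce before meiosis, stood at 678%, 31.4% and 15.3%. For these genes Dutch exceeded its own ESC array too, with Dazl at 726% and Stra8 at 780% of the Dutch ESC value. The list as a whole had 6 members higher without overlap, where 3.68% of all genes were. Among them were Tfap2c at 4287.4, 1467.4 and 505.9 against 177.8 to 444.8, and Morc1 at 3455.6, 912.3 and 148.9 against values under 23. The median log2 difference of the list was 2.03, against -0.13 for all genes. Tfap2c also marks trophoblast, and Kit, Prdm1 and Tex15 did not separate both sides.

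The largest lower differences were in genes known from several tissues, such as liver, connective tissue and vessel wall. Igfbp1, a secreted insulin-like growth factor binding protein, read 194.6, 164.2 and 230.9 in Dutch, 14-14-4 and 2-55-2. It read 6311.6 in 7-4-1, 6585.4 in Ta1-12, and 4205.7, 368.1 and 10172 in WT lines B21, J1 and R1, a log2 difference of -4.23 (SD 0.25 among the 3 and 1.91 among the 5). The retaining lines were alike and low, and J1 came nearest to them. Aspn, a matrix proteoglycan, read 20.2, 32.2 and 115.4 against 150.6 in 7-4-1 and 548.4 to 1184.3 in the other 4. Kcnj8, a potassium channel subunit of pericytes and smooth muscle, read 32, 57.9 and 335.6 against 363.5 in 7-4-1 and 595.3 to 1540.4 elsewhere. In both genes 2-55-2 and 7-4-1 were neighbours on either side of a narrow gap. Aldh1a1, a retinaldehyde dehydrogenase, read 56.6 in Dutch, 638.0 in 14-14-4 and 528.6 in 2-55-2, against 723.6 in 7-4-1 and 1050.7 to 10592 elsewhere. Lox, the collagen cross-linking enzyme, read 224.7, 727.1 and 1318.4 against 1868.9 to 8321.1. Diras2, a small GTPase, showed little spread outside the retaining lines, at 417.0 to 671.6 against 82.4, 18.3 and 169.5.

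**Figure D3:**
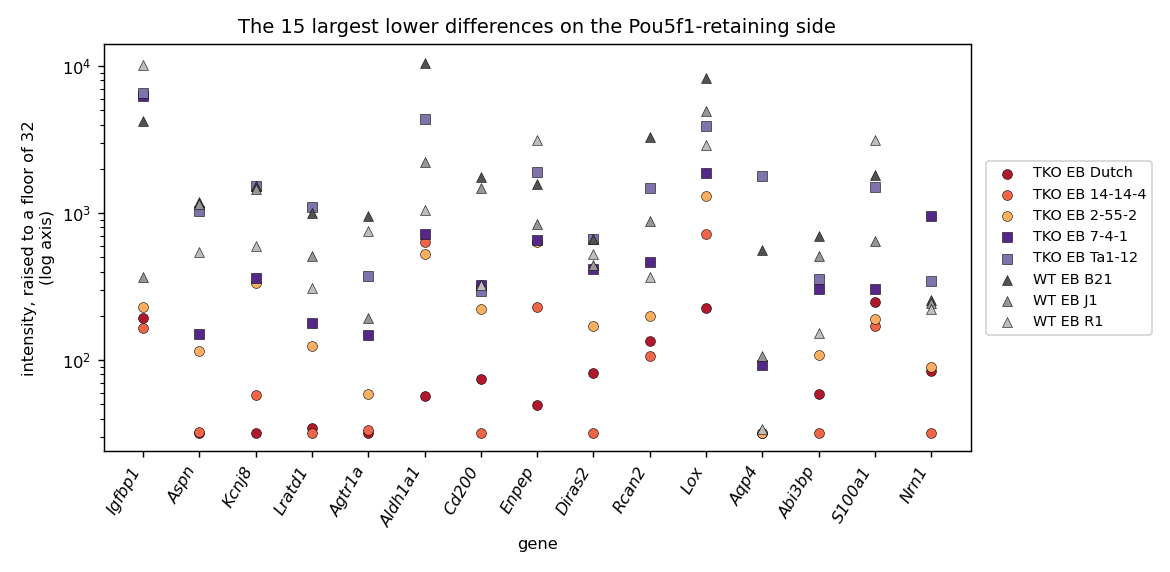
Intensity on a log axis, raised to a floor of 32, of the 15 genes with the largest lower differences without overlap, in each of the 8 EB arrays. Circles are the 3 retaining lines, squares the other TKO lines and triangles WT lines; every circle lies under every square and triangle of its gene, with 2-55-2 and 7-4-1 often adjacent.

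Among tissue lists, mesenchyme and fibroblast genes had the most separated members. Of 23 tested, 9 were lower without overlap and none higher, where 9.4% of all genes were lower by that rule, and 7 were lower after quantile normalization, where 4.75% of all genes were. Their median was -0.91. Pdgfra, a receptor of mesenchymal progenitors, read 370.0 in Dutch, 2035.8 in 14-14-4 and 2383.4 in 2-55-2, against 3742.3 to 10127 in the other 5. Col6a1, a matrix collagen chain, read 441.9, 1374.9 and 2590.4 against 3820.5 to 7374.4. Dutch was lowest for both, and its list mean was 10.21 on the log2 scale, against 11.21 in 14-14-4, 11.88 in 2-55-2 and 11.86 to 12.49 elsewhere. In the ESC arrays that mean was 6.79 to 7.57, so the Dutch EB mean lay nearer to the other EB than to ESC.

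The 3 retaining lines were unlike each other in their differentiated tissues. Macrophage genes had a list mean of 6.08 in Dutch, close to the 5.75 to 5.81 of ESC, but 10.88 in 14-14-4 and 8.77 in 2-55-2, against 7.81 in 7-4-1 and 10.22 to 11.62 elsewhere. Lyz2, the macrophage lysozyme, read 21.6 in Dutch, 1596.6 in 14-14-4 and 975.9 in 2-55-2, with 354.3 in 7-4-1 and 3383.6 to 9340.9 in the rest. Complement gene C1qa was at 3.8 in Dutch and 3140.5 in 14-14-4, the latter inside the WT EB range of 1976.6 to 5226.8. Muscle genes took another order. Line 2-55-2 had the highest cardiac list mean of all 8, at 10.27, while 14-14-4 at 6.78 and Dutch at 7.33 were the lowest. Tnnt2, cardiac troponin T, read 12140 in 2-55-2, 270.7 in 14-14-4 and 193.8 in Dutch, against 1395.2 to 8171.5 elsewhere. Myog, a regulator of skeletal muscle differentiation, read 8799.1 in 2-55-2, 13.5 in 14-14-4 and 38.7 in Dutch, against 116.9 to 5463.8. Krt15, a keratin of surface epithelium, read 8325.1 in 2-55-2 but 289.9 in 14-14-4 and 19 in Dutch. It was also low in 7-4-1 at 210.5, against 7575.4 to 13629 in Ta1-12 and WT. Hence 2-55-2 combined Pou5f1 at 12.9% of the ESC level with more Tnnt2 and Myog RNA than any other EB sample and with Krt15 inside the WT EB range. Of 15 macrophage genes none was separated between both sides, and of 27 cardiac genes 1 was. None of 9 skeletal muscle genes and none of 15 surface epithelium genes was. Over all genes tested, 9.4% were lower and 3.68% higher without overlap.

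For markers of the remaining tissues the counts are given beside the shares of all genes, 9.4% lower and 3.68% higher without overlap, and nothing particular to these lists is read from them. Of 20 visceral endoderm genes 1 was lower without overlap, of 13 parietal endoderm genes 1, of 13 endothelial genes 2, of 8 gut and liver genes 1 and of 10 smooth muscle genes 1. Cdh5, the endothelial cadherin, read 88.4, 77.1 and 139.7 in the retaining lines and 86.0 in 7-4-1, against 768.2 to 3119.7 in the other 4. It divided 4 TKO lines from WT and Ta1-12, and not the retaining lines from the rest. None of the 11 early mesoderm genes tested and none of the 13 Hox genes was separated. Hoxb3, a hindbrain and trunk patterning gene, was high in 7-4-1 at 4289.0 and read 81.1 to 1005.3 in the other 7 EB samples. Among 9 trophoblast genes 3 were higher, of which Plac1 read 666.5, 341.4 and 223.7 against 146.0 to 212.7, although ESC arrays read 18.7 to 47.5. Of 17 neural progenitor genes 1 was lower, and of 15 genes of postmitotic neurons, 6 erythroid and 14 imprinted genes none was separated. Of 6 cartilage and bone genes 1 was higher, which was Alpl.

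**Figure D4:**
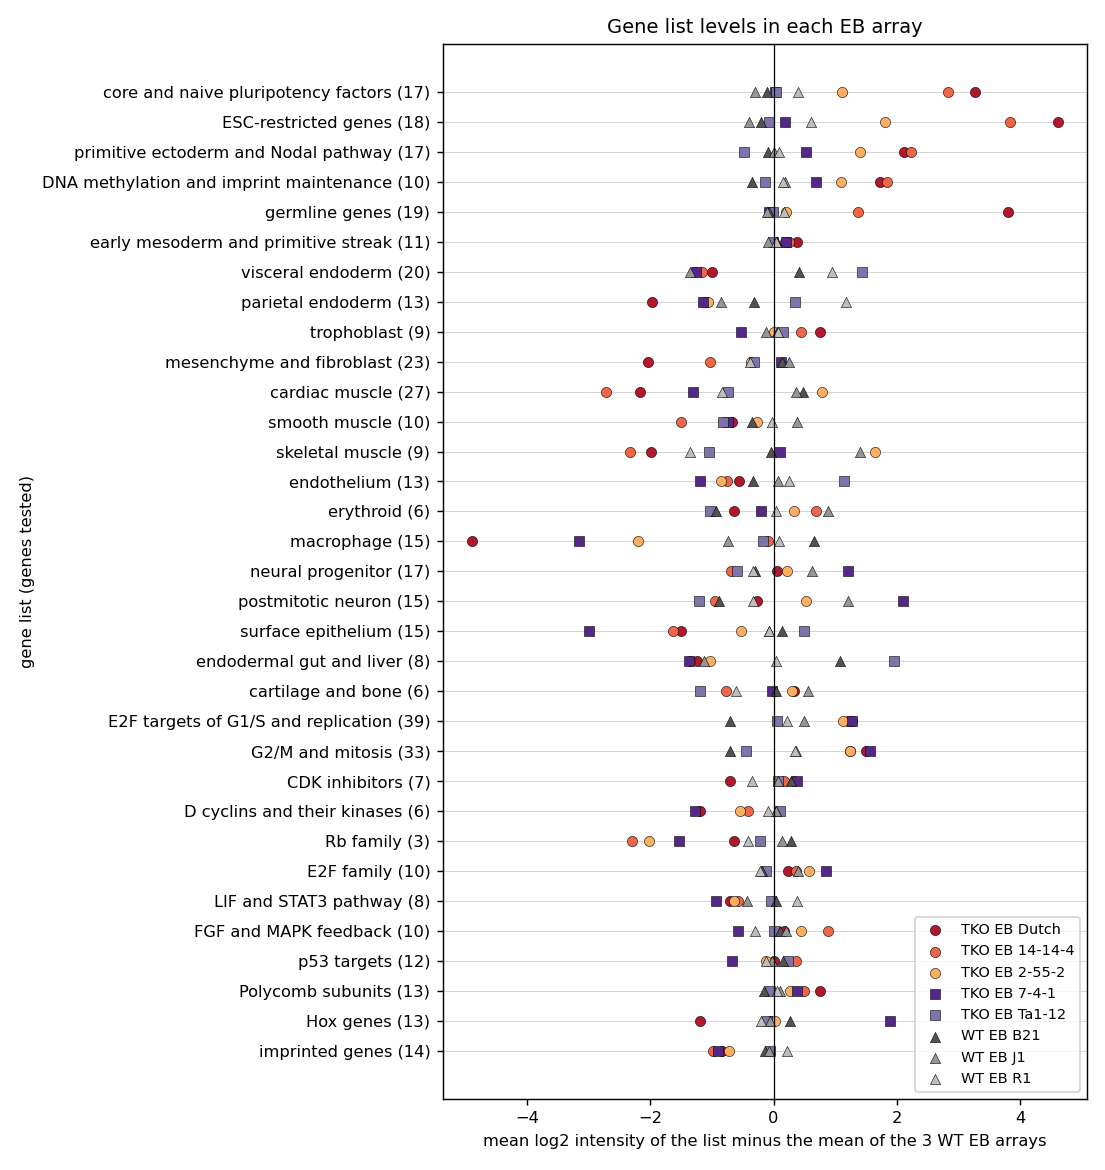
Mean log2 intensity of each gene list in the 8 EB arrays, minus the mean of the 3 WT EB arrays; the number of tested genes is in parentheses. Circles (retaining lines) lie to the right of all others for the pluripotency lists and are scattered for macrophage and muscle lists, while for E2F targets and mitosis genes 7-4-1 lies with the circles and Ta1-12 with WT.

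Cell cycle genes were as high in 7-4-1, which lay under the cut with Pou5f1 at 146.8, as in the retaining lines. The 39 tested E2F targets of replication had list means of 11.77, 11.71 and 11.62 in Dutch, 14-14-4 and 2-55-2, and of 11.77 in 7-4-1. Ta1-12 at 10.55 lay within the 9.79 to 10.99 of WT EB, and the ESC arrays lay between 11.64 and 11.85. Cenpf, a kinetochore protein made in G2 and mitosis, read 4047.2, 3382.8 and 4152.6 in the retaining lines and 5585.6 in 7-4-1, against 728.0 in Ta1-12 and 724.1 to 1271.9 in WT. The helicase factor Cdc45 read 2532.4, 1766.5 and 2140.0 in the retaining lines and 2817.5 in 7-4-1, against 418.2 in Ta1-12 and 260.3 to 804.7 in WT. For both genes 7-4-1 was the highest EB sample. Of 39 E2F targets 3 were higher on the retaining side without overlap, and of 33 genes of G2 and mitosis 1 was, where 3.68% of all genes were. After quantile normalization these counts were 6 and 1, where 7.94% of all genes were higher. Mybl2, a Myb-family cell cycle factor that stem cells express strongly, behaved in between, at 3493.1, 2535.6 and 634.7, with 589.7 in 7-4-1, 356.8 in Ta1-12 and 109.6 to 775.4 in WT.

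**Figure D5:**
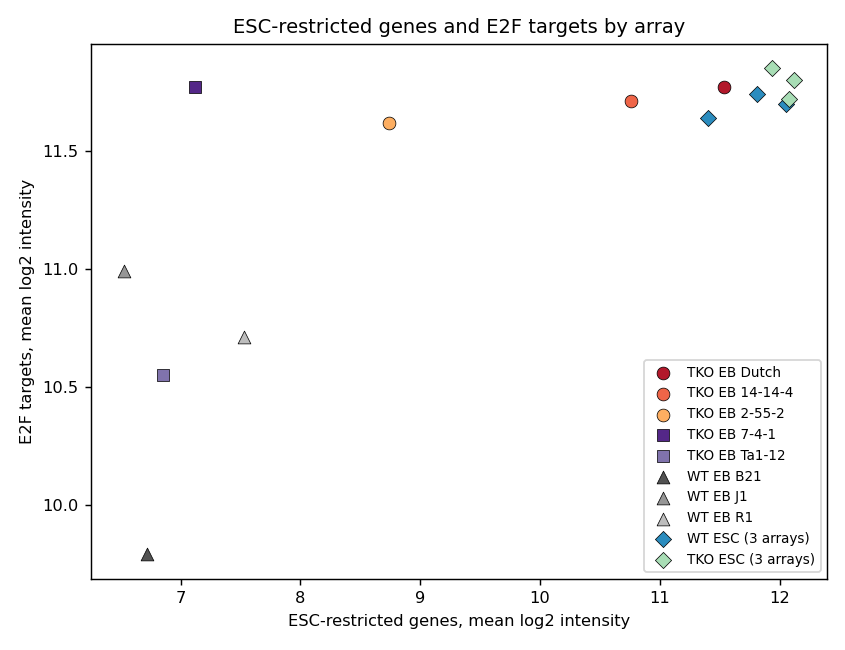
Mean log2 intensity of the 39 E2F targets (vertical) against the 18 ESC-restricted genes (horizontal), 1 symbol per array. Line 7-4-1 has E2F targets at 11.77, as in Dutch, with ESC-restricted genes at 7.12, inside the WT EB range of 6.53 to 7.53.

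The TKO and WT labels do not use Pou5f1 and were compared with limma over all genes. With all 5 TKO EB lines, 0 of 14365 genes passed an adjusted p of 0.05 (0.0% called), while 2034 had an unadjusted p under 0.05. For Cenpf the log2 difference of TKO from WT EB was 1.53, with a limma adjusted p of 0.303. Without the sample labelled Ta1-12, 480 genes were higher (3.34%) and 942 lower (6.56%). In that fit 33 of 39 E2F targets and 32 of 33 genes of G2 and mitosis rose in TKO EB and none fell, with medians of 1.20 and 1.41 against -0.11 over all genes. Cenpf rose by 2.04 (SE 0.23, limma adjusted p 0.000933), Mcm10 by 2.31 (SE 0.35, limma adjusted p 0.00415) and Cdc45 by 2.09 (SE 0.33, limma adjusted p 0.00506), each with all 4 remaining TKO arrays above all WT arrays. These rises rest on 1 probe set per gene. Along the Pou5f1 split, other probe sets above the filter differed by only 0.11 and 0.86 for Mcm10, against 2.04 for the one used. For Cdc45 the other one differed by 0.02, against 1.58. In the limma fit without Ta1-12, 7 of 17 pluripotency factors and 6 of 18 ESC-restricted genes were called higher. That count is not independent of the split, since 3 of the 4 TKO lines left are the retaining ones. Nanog had a limma adjusted p of 0.303 with Ta1-12 and 0.00895 without it. Leaving out any other single EB array gave 0 calls, except for 2 calls without WT line R1. The error in these fits was pooled over EB and ESC arrays. E2F target means ran only from 11.64 to 11.85 over the ESC arrays, while those of WT EB had an SD of 0.63. For genes of G2 and mitosis the ESC means ran from 11.54 to 11.72, and the WT EB SD was 0.61. For these 2 lists the pooled SE and adjusted p therefore tend to understate the spread between EB lines. A limma fit over the EB arrays alone, with all 5 TKO lines, called 0 genes and had 1022 with an unadjusted p under 0.05. That fit was not run without Ta1-12. Because Ta1-12 lay within the WT EB range for the E2F target and mitosis lists, leaving it out raised their difference.

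Promoters of 2 replication genes are shown because they stand for the gene group whose levels were shared with 7-4-1 rather than divided by Pou5f1. The motifs TTTCCCGC, TTTGGCGC and TTTCGCGC were searched on both strands, where one stretch may match on either strand. They were found in 13 of the 33 E2F target genes with a RefSeq promoter (39.4%), in 2.12% of all genes and in 0 of the 12 genes of the pluripotent group above. The list was assembled as E2F targets, so its share is not a result of these arrays. At a share of 2.12%, 12 genes are too few to show a lack of the motif. The genes shown, Pold1 and Mcm3, had the smallest adjusted p in the fit without Ta1-12 among the 13. Pold1, the catalytic subunit of DNA polymerase delta, lies at chr7:44548766-44549065 on the minus strand with 1 match. Mcm3, a subunit of the replicative helicase, lies at chr1:20820263-20820562 on the minus strand with 2 matches. Capitals mark the matches in GRCm38.p6.
Pold1: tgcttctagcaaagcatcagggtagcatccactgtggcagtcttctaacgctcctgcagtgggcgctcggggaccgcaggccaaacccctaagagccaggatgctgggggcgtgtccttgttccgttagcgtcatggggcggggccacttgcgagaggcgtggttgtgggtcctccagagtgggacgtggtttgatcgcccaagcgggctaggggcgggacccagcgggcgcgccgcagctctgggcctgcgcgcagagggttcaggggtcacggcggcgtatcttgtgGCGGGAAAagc
Mcm3: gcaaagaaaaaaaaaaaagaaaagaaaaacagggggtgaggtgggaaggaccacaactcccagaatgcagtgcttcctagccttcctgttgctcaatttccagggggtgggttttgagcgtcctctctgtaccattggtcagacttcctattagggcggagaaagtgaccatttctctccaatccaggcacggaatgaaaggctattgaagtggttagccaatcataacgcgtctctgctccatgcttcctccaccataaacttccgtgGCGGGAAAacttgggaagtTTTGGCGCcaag
Pold1 read 3546.6, 2639.4 and 1861.9 in Dutch, 14-14-4 and 2-55-2 and 2944.1 in 7-4-1, against 624.9 in Ta1-12 and 384.7 to 904.7 in WT EB. Its level was high in all 4 of these TKO lines, on either side of the Pou5f1 cut.

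Of the Rb family, Rbl2 was lower on the retaining side without overlap, at 456.1, 313.8 and 296.8 in Dutch, 14-14-4 and 2-55-2, against 733.0 in 7-4-1, 1098.7 in Ta1-12 and 722.8 to 1726.9 in WT. Both TKO lines under the Pou5f1 cut thus read Rbl2 inside the WT range. Among the TKO lines, Pou5f1 retention and a low Rbl2 signal therefore cannot be told apart. Rbl1 was near the floor in 3 TKO lines that lay on both sides of the split. Cyclin D2, encoded by Ccnd2, read 1179.5 to 3355.1 in the retaining lines and 7-4-1, against 10229 to 12983 in Ta1-12 and WT. It fell by 2.53 in TKO EB without Ta1-12 (SE 0.41, limma adjusted p 0.00507), and that pattern too left 7-4-1 with the retaining lines. None of 7 CDK inhibitor genes, 6 genes of D cyclins and their kinases and 10 E2F family genes was separated by the Pou5f1 split. Of 12 p53 targets 1 was higher, Mdm2, and of 10 FGF pathway genes 3 were higher, Etv5, Fgf5 and Fgf4. Fgf4 separated barely, at 41.2% of the TKO ESC mean in 2-55-2 and 41.0% in 7-4-1. Its log2 difference was 0.86 with the probe set used, and 4.14 and 4.05 with its other probe sets above the filter. Il6st and Socs3, the signalling receptor and a feedback inhibitor of the LIF pathway, were lower on the retaining side without overlap, by narrow margins. Il6st read 2145.0 to 2565.6 against 2974.6 to 4763.7. After quantile normalization only 1 gene of the LIF list was lower without overlap. Other Il6st probe sets above the filter had log2 differences of 0.14, -1.44 and -0.66, against -0.64 for the one used. Of 13 Polycomb subunits 2 were higher and 1, Ring1, lower without overlap. Over all genes tested, 3.68% were higher and 9.4% lower by that rule, and nothing particular to these lists is read from their counts. Cbx7, a reader subunit of stem cells, read 862.6, 994.8 and 224.5 and overlapped with 290.1 in WT line R1.

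Dutch was the only retaining line with an ESC array, and ESC arrays were not used by the rule. Dutch ESC was compared with the other 2 TKO ESC arrays with limma, on the assumption that a lone sample varies like the other groups. No gene passed the threshold (0 of 14365, 0.0%), and 117 had an unadjusted p under 0.05. With no filter on low values 82 genes passed, 77 of them higher in Dutch. Nanog read 8765.4 in Dutch ESC and 7930.6 and 7474.3 in the other TKO ESC, a log2 difference of 0.19 (limma adjusted p 1.0). The median difference was 0.08 for the 17 pluripotency factors and 0.06 for the 18 ESC-restricted genes, against 0.01 for all genes. The test says little about these genes, because its error is pooled with the TKO EB lines, which differ widely in them. The SE of the Nanog difference was 2.37 in that fit and 0.34 in a fit over the ESC arrays only. The ESC-only fit also called 0 genes, with 530 at an unadjusted p under 0.05. Among Pou5f1, the 17 factors and the 18 ESC-restricted genes, 1 of 36 had an unadjusted p under 0.05 there, Gdf3, which was lower in Dutch by a log2 difference of -0.84 (SE 0.16, limma adjusted p 1.0). Whether Dutch ESC differed in these genes is not settled by 1 array against 2.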

How the data were processed

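Affymetrix arrays measured Trizol-extracted total RNA of each culture after biotin labelling, per the labels. The authors deposited linear intensity values of 45101 probe sets on 14 arrays, and their background correction, scaling and summarisation are not given in the sources used here. Per the file, 34958 probe sets had a single gene symbol in the platform annotation, 932 several and 9211 none. From the deposited intensity, values under 32 were raised to 32 and taken to log2. The probe set with the highest mean stood for a gene, and the 14365 genes tested were those that exceeded the 40th percentile of an array in 3 or more of the arrays. Groups came from the titles, and the Pou5f1 split from 1 probe set.

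Differences along the split are means of log2 values with a count of genes whose arrays did not overlap, and carry no test. Label groups were compared with limma 3.58.1 in R 4.3.3 (1 mean per group over all 14 arrays, eBayes with trend, Benjamini-Hochberg over all genes); errors of its differences are standard errors, and each adjusted p is from limma. The scripts were tested on simulated data. The members, the 34 gene lists and the tests were chosen with earlier results of these data known. Named genes were the 15 largest higher and 15 largest lower differences without overlap (no predicted or sex-linked genes), up to 4 members per list with the largest difference, the Rb family, Nanog, Sox2 and Pou5f1, and the 5 genes most like Pou5f1. Other list members are named to account for a list or for their share of the ESC level, and were chosen after their values were seen. The alternatives were other floors, quantile normalization, no filter, the mean of all probe sets, other cuts and folds, fits on one stage or without trend, and each array left out. The number of arrays limits the precision. The series text calls the lines biological replicates, and p-values measure the spread between them, pooled over EB and ESC except in the fits on a single stage.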

Additional observations from a re-analysis of the deposited data

Results flagged for a closer look

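Among 35 sets of values over the 5 TKO EB lines, 7 had 1 line far from the other 4 by Dixon's test, where chance flags about 1 in 20 groups. In 6 of these the distant line was Ta1-12, with mean log2 levels of 11.37 for visceral endoderm genes, 9.36 for endothelium, 9.91 for gut and liver, and 11.54 for imprinted genes, all above the others. The same line was far under the others for E2F targets at 10.55 and for genes of G2 and mitosis at 9.92. Dutch stood under the others for CDK inhibitor genes, at 10.19. No pluripotency list had such a line. All sets were read on the same 5 arrays and some share genes, so they are not independent. No excess over chance is read from the 7.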

How the results depend on the processing

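Of the 152 named genes, the 54 whose arrays were separated along the split kept their sign under every alternative run, as did the 68 separated among TKO lines. Of the overlapping genes, 11 of 98 changed sign under at least 1 alternative, and 54 of 84 did so among TKO lines, C1qa and Krt15 among them. The count of genes higher and lower on the retaining side moved with several settings. It was 221 and 197 after quantile normalization, 423 and 859 at a Pou5f1 cut of 2000, which moves 2-55-2 to the other side, and 60 and 46 at a fold of 4. Leaving out 1 array gave 125 to 460 higher and 365 to 1064 lower genes. Among TKO lines the counts were 504 and 920 at a cut of 2000, 75 and 80 at a fold of 4, and 342 lower genes after quantile normalization. Leaving out 1 array there gave 184 to 748 higher and 520 to 1798 lower genes.

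For TKO EB against WT EB, limma called 10 genes with a floor of 64 and 0 to 1422 with 1 array left out. For Dutch ESC against the other TKO ESC it called 1 gene with a floor of 64, 82 with no filter and 0 with 1 array left out. The cause of the rise with no filter was not tested.

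With WT stage genes at least 8-fold apart, the ESC-high median was -3.48 in 2-55-2, -4.12 in 7-4-1 and -4.13 in Ta1-12, so that 2-55-2 no longer lay at the level of 7-4-1. The EB-high median was then 3.46 in 2-55-2, 2.85 in 14-14-4, 3.41 in 7-4-1 and 4.30 in Ta1-12. Of 118 further probe sets of named genes, 113 had the sign of the main one. The same sign does not mean the same size, as for Cdc45 at 0.02 against 1.58. No paired analysis was possible because each line occurs once in the EB comparisons and the ESC comparison is between different lines. Depth has no counterpart on arrays, and genes under the floor have no order.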
